A study of Mus musculus with 4 samples.

Results

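The Hox genes were followed in primary vascular smooth muscle cells (VSMCs) of the mouse thoracic aorta with and without a deletion of Mmp14, which encodes MT1-MMP, a collagenase held in the cell membrane. They were taken as the rows of the deposited table whose platform annotation gives a single symbol of the form Hoxa, Hoxb, Hoxc or Hoxd with a paralog number. This gave 36 genes of 22180 with a symbol of their own. RefSeq lists 39 mouse Hox genes, and those without a row of their own were not analysed here. Of the 36, 19 had a mean at or above the level filter and were tested among 12550 genes. The 4 arrays were 2 controls, SM22α-Cre(−)Mmp14(fl/fl)Apoe(−/−), and 2 knockouts, SM22α-Cre(+)Mmp14(fl/fl)Apoe(−/−). All animals therefore lacked Apoe, a lipoprotein carrier whose loss raises plasma cholesterol, all carried floxed Mmp14, and all ate a Western diet for 3 months, so there was no wild-type group. Age and sex are not given in the labels used here. SM22α (Tagln) drives Cre in smooth muscle, but its promoter can also be active in other cells. The cells had grown for 5 days in medium with serum after removal of the adventitia and collagenase digestion. The labels do not say which stretch of the thoracic aorta each culture came from. Per the design text the mice formed 2 separate pairs, and mouse, culture and hybridisation all differ from array to array, so the p-values rest on their joint spread.

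Hox genes encode homeodomain transcription factors and lie in 4 clusters, Hoxa to Hoxd, in which genes of low paralog number sit at one end and genes of high number at the other. During development the low-numbered genes switch on first and toward the head, and the high-numbered genes later and toward the tail. Smooth muscle cells of different segments of the aorta keep different Hox profiles in the adult, and they stem from different embryonic sources, among them neural crest, second heart field and somites. Hox proteins bind DNA together with TALE homeodomain partners of the Pbx, Meis and Pknox families. Polycomb and trithorax complexes hold the clusters silent or active, and retinoic acid activates the low-numbered genes in the embryo.

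The array medians over all rows lay between 3.01 and 3.05 log2 units. Mmp14, the targeted gene, read 8.71 and 9.05 in Cre-negative cells and 8.27 and 8.19 in Cre-positive cells, and its row covers the whole transcript cluster, floxed exons or not, so it is a partial check of the labels. All 10 listed smooth muscle markers passed the level filter, among them Acta2, smooth muscle alpha actin, at 11.33 and 11.05 without Cre and 11.40 and 10.89 with Cre, and Des, desmin, at 3.58 and 3.65 without Cre and 3.54 and 3.69 with Cre. With 2 arrays against 2, an exact permutation test of a single gene cannot give a two-sided p below 0.333.

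The Hox genes that passed the level filter came mainly from the middle of the clusters. Rows of different genes respond differently on an array, so no gene's level is set against that of another here, and each mean was compared with 2 array-wide levels. The first was the level filter, the median of all row means, at 3.02. The second was the 95th percentile of the means of 1091 olfactory receptor rows, genes not thought to be active in smooth muscle, at 3.45. The filter was passed by 19 of 36 Hox genes, where 56.6% of all genes passed it, and the olfactory level by 18 of 36, where 47.7% of all genes did. By cluster the filter was passed by 7 of 9 Hoxa genes, 6 of 10 Hoxb genes, 5 of 9 Hoxc genes and 1 of 8 Hoxd genes. By paralog number it was passed by 3 of 7 genes of groups 1 to 3, 12 of 14 of groups 4 to 8, 4 of 7 of groups 9 to 10 and 0 of 8 of groups 11 to 13. Hoxc4, with a mean of 3.43, passed the filter but not the olfactory level.

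The 17 genes below the filter ranged from 1.96 to 3.48 over single arrays, and their knockout minus control differences lay between -0.26 and 0.19. They were Hoxa10, Hoxa13, Hoxb1, Hoxb2, Hoxb8, Hoxb13, Hoxc5, Hoxc11, Hoxc12, Hoxc13, Hoxd1, Hoxd3 and Hoxd9 to Hoxd13. None of them varied by more than 1 log2 unit over the arrays, and the widest range, 0.98, was that of Hoxc13. The array gives no detection call, so a row at this level shows neither presence nor absence of the transcript.

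**Figure D1:**
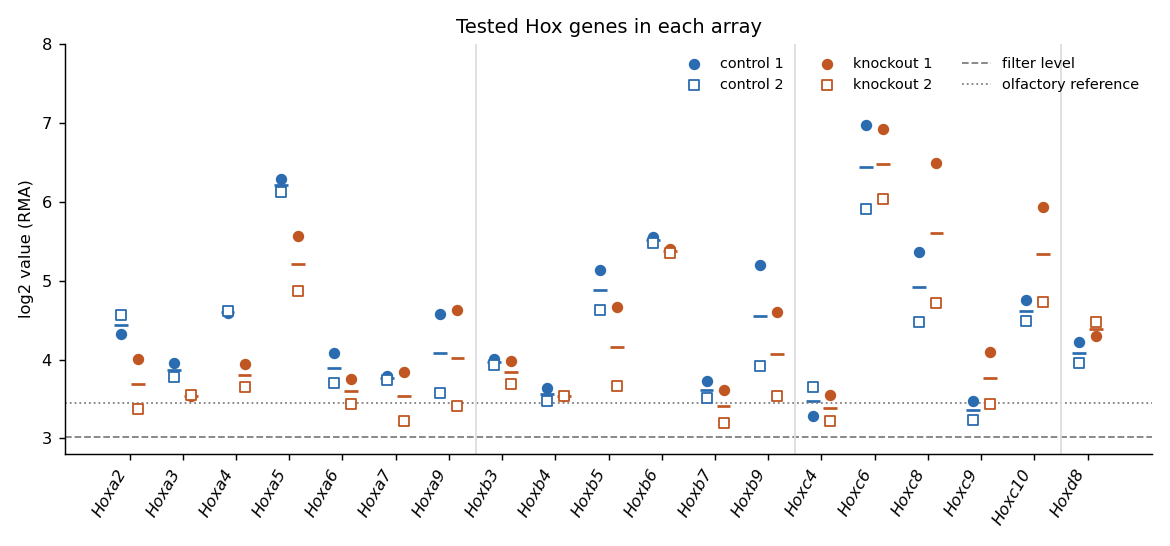
Log2 expression value (vertical axis) of the 19 tested Hox genes, ordered by cluster and paralog number, in the 4 arrays. Blue marks controls and orange knockouts, filled circles are replicate 1, open squares replicate 2, short bars the mean of 2 arrays, and the dashed and dotted lines the filter level of 3.02 and the olfactory level of 3.45. Hoxa4 and Hoxa5 show both knockout arrays below both controls, and Hoxa9, Hoxb9, Hoxc6 and Hoxc8 show replicate 1 above replicate 2 in both groups.

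No Hox gene passed the genome-wide test of knockout against control. Of the 19 tested, 0 were called by limma at an adjusted p under 0.05, where 0% of all tested genes were called, and the smallest adjusted p among them was 0.249. At an unadjusted p under 0.05 there were 3 Hox genes, all lower in the knockouts (Hoxa2, Hoxa4 and Hoxa5), where 6.78% of all tested genes were lower at that level and 4.89% higher. The mean was lower in the knockouts for 14 of the 19 and higher for 5, where 58.3% of all genes were lower and 41.7% higher. The knockout arrays lay wholly below the controls for 5 Hox genes, where 27.5% of all genes did so, and wholly above for 1, where 16.7% did. The groups were thus apart in 1 direction or the other for 6 of the 19, where they were for 44.3% of all genes. The median difference was -0.13 over the 19 Hox genes and -0.05 over all 12550 genes. Without knockout replicate 2 the Hox median was 0.02, with 10 genes higher and 9 lower, and without knockout replicate 1 it was -0.40, with 3 higher and 16 lower, so the balance over the whole family rested on single arrays.

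The clusters did not lean the same way. All 7 tested Hoxa genes and all 6 tested Hoxb genes had a lower mean in the knockouts, with medians of -0.33 and -0.17. Of the 5 tested Hoxc genes 4 had a higher mean, with a median of 0.41, and Hoxd8, the only tested Hoxd gene, was also higher. Without knockout replicate 2, Hoxa7 (0.08), Hoxa9 (0.54), Hoxb3 (0.02), Hoxb9 (0.05) and Hoxc4 (0.08) turned to a higher mean, and without knockout replicate 1, Hoxc6 (-0.40) and Hoxc8 (-0.21) turned to a lower one. Without control replicate 1, Hoxa9 (0.43), Hoxb4 (0.07) and Hoxb9 (0.16) turned to a higher mean, and without control replicate 2, Hoxc4 (0.10) turned to a higher and Hoxc6 (-0.49) to a lower one. The difference between clusters was not tested.

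**Figure D2:**
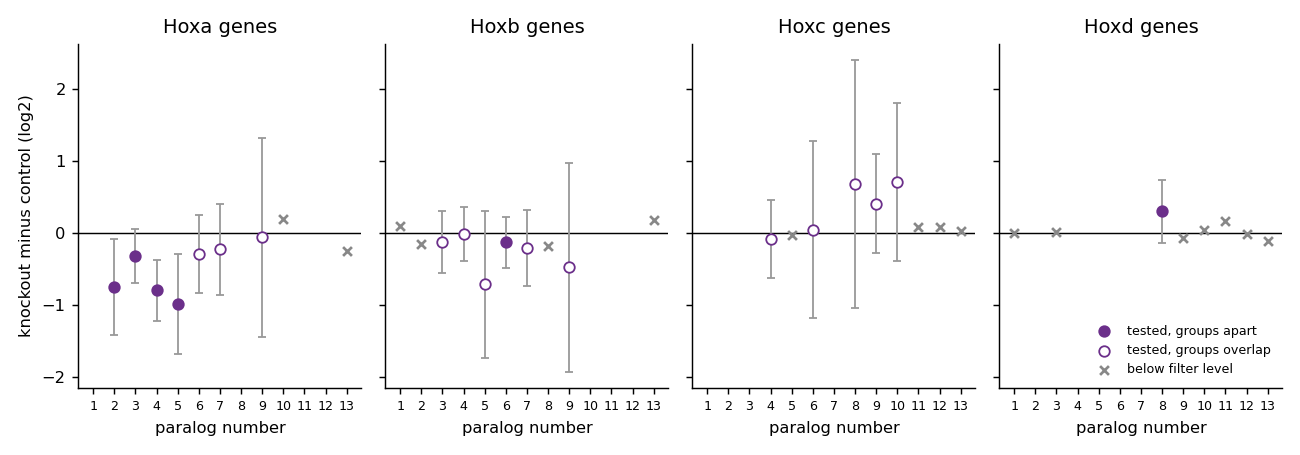
Knockout minus control difference in log2 units (vertical axis) against paralog number (horizontal axis), with a panel for each Hox cluster. Circles are tested genes with 95% limma intervals, filled where the 2 groups did not overlap and open where they did, and crosses are genes below the filter level, drawn without an interval. The intervals of Hoxa2, Hoxa4 and Hoxa5 lie below 0, and those of the other 16 tested genes include 0.

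The low-numbered end of the Hoxa cluster held the lower values. Hoxa2, Hoxa3, Hoxa4 and Hoxa5 were 4 of the 5 Hox genes whose knockout arrays lay wholly below the controls. Hoxa2, which patterns the hindbrain and the second pharyngeal arch, read 4.32 and 4.56 in control cells, against 4.01 and 3.37 in knockout cells. Its difference was -0.75 (SE 0.26, 95% interval -1.42 to -0.08; limma, adjusted p = 0.385), and it was -0.43 without knockout replicate 2. Hoxa3, needed for thymus and carotid artery development from the third arch, read 3.96 and 3.78 in Cre-negative cells and 3.54 and 3.55 in Cre-positive cells. The Hoxa3 groups were apart by a small step, a difference of -0.33 (SE 0.14, 95% interval -0.70 to 0.05; limma, adjusted p = 0.477).

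Hoxa4, a neighbour of Hoxa3 that takes part in patterning the neck vertebrae, had the smallest adjusted p of the family. It read 4.59 and 4.61 without Cre and 3.95 and 3.66 with Cre, with means of 4.60 ± 0.01 and 3.80 ± 0.20 (SD, n = 2 each). The control arrays were nearly level and both knockout arrays were below them, a difference of -0.80 (SE 0.16, 95% interval -1.22 to -0.38; limma, adjusted p = 0.249). This is 0.574 times the control level on the linear scale. With single arrays left out the Hoxa4 difference ran from -0.94 to -0.66.

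Hoxa5, required for lung and airway development, had the largest difference of the family. Its values were 6.29 and 6.12 in control cells, against 5.56 and 4.87 in knockout cells, means of 6.21 ± 0.12 and 5.22 ± 0.49 (SD, n = 2 each). Knockout replicate 2 was the lowest of the 4 arrays, as it was for Hoxa2 and Hoxa4. The difference was -0.99 (SE 0.26, 95% interval -1.68 to -0.30; limma, adjusted p = 0.328), or 0.504 times the control level, and without knockout replicate 2 it was -0.64. RefSeq draws the Hoxa3 gene across Hoxa4, Hoxa5 and Hoxa6, so probes of overlapping transcripts may be shared between these rows and the differences of Hoxa3, Hoxa4 and Hoxa5 may not be separate pieces of evidence.

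The stretches just upstream of the RefSeq starts of 3 of these genes, and of Hoxd8, the only tested Hox gene whose knockout arrays lay wholly above the controls, are shown to place the genes of opposite direction side by side. Each window holds the 250 bases before the start in RefSeq's build GRCm38.p6, written 5′ to 3′ on the gene's own strand. Capitals mark TAAT (the core of homeodomain sites), TGATNNAT (a joint Pbx and Hox site) and TGACAG (a Meis and Pknox site), each found on either strand, and these matches can overlap.
Hoxa2, chr6:52164832-52165081, minus strand: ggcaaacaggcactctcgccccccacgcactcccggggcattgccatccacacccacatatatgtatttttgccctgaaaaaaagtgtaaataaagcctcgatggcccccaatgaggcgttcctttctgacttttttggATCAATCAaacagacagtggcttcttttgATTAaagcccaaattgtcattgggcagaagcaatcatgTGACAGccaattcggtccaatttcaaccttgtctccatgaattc
Hoxa3, chr6:52213068-52213317, minus strand: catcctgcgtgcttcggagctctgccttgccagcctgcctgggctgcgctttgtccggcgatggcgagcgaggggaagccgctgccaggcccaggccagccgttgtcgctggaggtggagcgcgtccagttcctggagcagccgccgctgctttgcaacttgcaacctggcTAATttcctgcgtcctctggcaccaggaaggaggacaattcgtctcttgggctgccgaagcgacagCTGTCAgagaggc
Hoxa5, chr6:52204588-52204837, minus strand: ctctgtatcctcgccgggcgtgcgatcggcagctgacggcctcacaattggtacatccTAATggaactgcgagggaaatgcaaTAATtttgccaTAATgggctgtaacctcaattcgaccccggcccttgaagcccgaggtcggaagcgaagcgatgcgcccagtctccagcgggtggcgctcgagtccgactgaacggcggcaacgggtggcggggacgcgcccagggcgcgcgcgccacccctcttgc
Hoxd8, chr2:74704365-74704614, plus strand: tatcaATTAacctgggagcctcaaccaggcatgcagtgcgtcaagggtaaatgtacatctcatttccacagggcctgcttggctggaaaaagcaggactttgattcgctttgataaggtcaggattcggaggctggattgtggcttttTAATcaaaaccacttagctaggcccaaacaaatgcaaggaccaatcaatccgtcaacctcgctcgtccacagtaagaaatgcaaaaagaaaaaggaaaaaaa

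TAAT occurred in 17 of the 22 Hox windows that the table holds for 20 of the 36 genes, and in 54.9% of all 32851 windows of that length. TGATNNAT occurred in 4 of 22 and in 7.7% of all, and TGACAG in 2 of 22 and in 15.9% of all. Both TGACAG matches were in printed windows, Hoxa2 and Hoxa3, and the Hoxa2 window also held TGATNNAT. Among general promoter elements, CCAAT was found in 13 of 22 and in 33.8% of all, GGGCGG in 10 of 22 and in 32.7% of all, and TATAAA in 3 of 22 and in 12.4% of all. A gene can start elsewhere than at the RefSeq start, as Hoxa3, whose RefSeq start lies upstream of Hoxa6, makes plain, and a match shows letters only.

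Further along the Hoxa cluster the groups overlapped. Hoxa6 read 4.08 and 3.70 in Cre-negative cells and 3.76 and 3.44 in Cre-positive cells, a difference of -0.29 (SE 0.21) that was -0.10 without control replicate 1. Hoxa7 read 3.79 and 3.74 without Cre and 3.84 and 3.23 with Cre, where only knockout replicate 2 was low (-0.23, SE 0.24). Hoxa9, known from blood stem cells and leukaemia as well as from the trunk skeleton, read 4.58 and 3.58 in control cells, against 4.62 and 3.41 in knockout cells. The Hoxa9 groups thus had nearly the same mean, a difference of -0.07 with a wide 95% interval of -1.45 to 1.32.

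In the Hoxb cluster the groups overlapped for 5 of the 6 tested genes. Hoxb5, which takes part in gut innervation, read 5.14 and 4.62 in Cre-negative cells and 4.67 and 3.66 in Cre-positive cells, a difference of -0.72 (SE 0.39; limma, adjusted p = 0.542) that ran from -1.22 without knockout replicate 1 to -0.21 without knockout replicate 2. It was the only Hox gene with 2 rows, and its other row, at 4.41 and 3.60 without Cre and 3.78 and 3.36 with Cre, differed by -0.43 and overlapped too. Hoxb6 read 5.55 and 5.48 in control cells, against 5.41 and 5.36 in knockout cells. The groups did not overlap, but the Hoxb6 difference was only -0.13 (SE 0.13). Hoxb9, which helps to shape the ribs, read 5.19 and 3.91 in Cre-negative cells and 4.60 and 3.54 in Cre-positive cells. Each group of Hoxb9 held 1 high and 1 low array, and the difference of -0.48 (SE 0.56) was smaller than that gap.

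The remaining tested Hoxb genes had overlapping groups, with ranges over the arrays of 0.32 (Hoxb3), 0.17 (Hoxb4) and 0.53 (Hoxb7). Hoxb3 read 4.01 and 3.93 without Cre and 3.99 and 3.69 with Cre. Hoxb4, which expands blood stem cells when overexpressed, read 3.64 and 3.47 in control cells, against 3.54 and 3.54 in knockout cells. Hoxb7 read 3.72 and 3.51 in Cre-negative cells and 3.61 and 3.20 in Cre-positive cells. The differences of these 3 genes, -0.13 (SE 0.17), -0.02 (SE 0.14) and -0.21 (SE 0.20), were close to or below their errors.

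In the Hoxc cluster knockout replicate 1 was the highest array for Hoxc8, Hoxc9 and Hoxc10. For these genes replicate 1 was above replicate 2 in both groups. Leaving out knockout replicate 1 thus sets a replicate 2 against both controls. Each knockout array was also above the control of the same number, though the labels do not say that the number marks a pair. Hoxc8, which patterns the thoracic skeleton and the motor neurons of the forelimb, read 5.37 and 4.47 without Cre and 6.49 and 4.71 with Cre. The second knockout array lay between the controls, and the difference of 0.68 (SE 0.66, 95% interval -1.04 to 2.41) became -0.21 without knockout replicate 1 and 1.57 without knockout replicate 2. Hoxc10, whose paralog group specifies lumbar vertebrae, read 4.76 and 4.48 in control cells, against 5.93 and 4.73 in knockout cells. Its difference of 0.71 (SE 0.42; limma, adjusted p = 0.569) became 0.11 without knockout replicate 1 and 1.31 without knockout replicate 2.

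Hoxc9, which marks motor neurons of the thoracic cord, read 3.48 and 3.24 in Cre-negative cells and 4.10 and 3.43 in Cre-positive cells, with knockout replicate 1 again the highest (0.41, SE 0.26; 0.07 without that array). Hoxc6 read 6.97 and 5.91 without Cre and 6.93 and 6.03 with Cre. The Hoxc6 means agreed to within 0.04 (SE 0.47) while the arrays within each group lay far apart. Hoxc4 read 3.28 and 3.65 in control cells, against 3.55 and 3.22 in knockout cells, a difference of -0.09 (SE 0.21).

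Hoxd8, a trunk patterning gene, read 4.22 and 3.95 in Cre-negative cells and 4.30 and 4.48 in Cre-positive cells. Both knockout arrays were above both controls, but only by a small margin for knockout replicate 1, and the difference of 0.30 (SE 0.17, 95% interval -0.14 to 0.74) did not pass the test (limma, adjusted p = 0.549). It was 0.17 without control replicate 2. The other 7 Hoxd genes stayed below the filter, between 2.19 and 2.90 in every array.

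The widest variation of the family ran within the groups. For 14 of the 19 tested Hox genes replicate 1 was above replicate 2 in the controls and in the knockouts alike, where 24.4% of all tested genes showed that pattern. For 5 of them, Hoxa9, Hoxb5, Hoxb9, Hoxc6 and Hoxc8, the step exceeded 0.5 in both groups, where 0.869% of all genes did so. For 0 of the 19 was replicate 1 lower by more than 0.5 in both, where 1.69% of all genes were. Hoxa9 stepped by 1.00 in the controls and 1.22 in the knockouts, Hoxb9 by 1.28 and 1.06, Hoxc6 by 1.06 and 0.89, and Hoxc8 by 0.90 and 1.78. These 4 genes were thus about as far apart between arrays of the same genotype as Hoxa5 was between genotypes. Hoxb5 stepped by 0.51 and 1.01, and Hoxc13, below the filter and singled out after its values were seen, by 0.98 and 0.80.

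The steps of the low-numbered Hoxa genes were smaller in the controls, at -0.23 for Hoxa2, 0.18 for Hoxa3, -0.02 for Hoxa4 and 0.16 for Hoxa5. In the knockouts these 4 genes stepped by 0.64, -0.01, 0.29 and 0.69, so that of the 4 only Hoxa5 had replicate 1 above replicate 2 in both groups. Across the 19 Hox genes, which share arrays and are not independent, the control and knockout steps had a Pearson's r of 0.622, and across all 12550 genes 0.0454. Nothing in the labels ties arrays of equal number to a pair of mice, and the size of 0.5 was chosen after the values were seen. Of the 10 smooth muscle markers 5 were higher in replicate 1 in both groups, beside the 24.4% of all genes, with steps of 1.35 and 1.03 for Cnn1 and of 0.70 and 0.60 for Tagln. Mylk, Smtn and Des were lower in replicate 1 in both groups, Mylk by steps of -0.54 and -0.14. The mean of the 10 smooth muscle markers was 6.74 and 6.59 without Cre and 6.86 and 6.48 with Cre. Their part in the Hox steps was not tested.

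**Figure D3:**
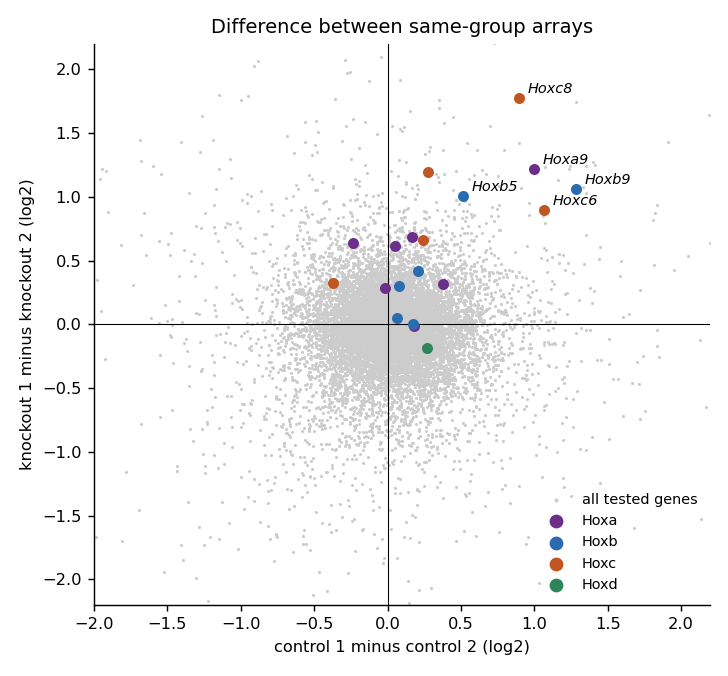
Difference between the 2 control arrays (horizontal axis) and between the 2 knockout arrays (vertical axis), replicate 1 minus replicate 2 in log2 units. Grey points are all tested genes, 66 of which fall outside the axes, and coloured points are the 19 tested Hox genes by cluster, named where both differences exceed 0.5. Hoxa9, Hoxb5, Hoxb9, Hoxc6 and Hoxc8 lie at the upper right, away from the bulk of the genes.

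The DNA-binding partners of Hox proteins differed little between the groups. Of 11 listed TALE genes 10 had a row and were tested, 5 with a higher and 5 with a lower mean in the knockouts and a median difference of 0.01. Limma called 0, with 1 at an unadjusted p under 0.05, where 11.7% of all tested genes were at that level. Meis2, a partner and cofactor in cardiac and arch artery development, read 6.14 and 6.21 in control cells, against 5.77 and 5.64 in knockout cells. It was the TALE gene with the largest difference without overlap, -0.47 (SE 0.14; limma, adjusted p = 0.351). Pbx3 read 4.90 and 4.47 in Cre-negative cells and 4.33 and 4.46 in Cre-positive cells, a difference of -0.29 (SE 0.20) that was -0.07 without control replicate 1.

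Among 26 listed Polycomb and trithorax genes, 23 were tested, 7 with a higher and 16 with a lower mean, where 58.3% of all tested genes were lower, and the median was -0.06. Limma called 0 of the 23, with 2 at an unadjusted p under 0.05, where 11.7% of all genes were. Phc1, a Polycomb repressive complex 1 subunit, read 4.75 and 4.95 without Cre and 4.29 and 4.18 with Cre (-0.62, SE 0.15; limma, adjusted p = 0.293). Kdm6b, a demethylase that removes the Polycomb mark on histone H3, read 5.56 and 4.91 in control cells, against 4.50 and 4.73 in knockout cells (-0.62, SE 0.26). The Kdm6b difference was -0.30 without control replicate 1, -0.95 without control replicate 2 and -0.34 as the mean of all its rows. Men1, the menin subunit of trithorax complexes, read 5.57 and 5.79 in Cre-negative cells and 5.26 and 5.26 in Cre-positive cells (-0.42, SE 0.15). All 3 had both knockout arrays below both controls, as did 6 of the 23 in all beside 27.5% of all genes, and 4 of the 23 had them above beside 16.7%. Ezh2, the Polycomb methyltransferase, was singled out after its values were seen: it read 6.36 and 6.53 without Cre and 5.45 and 6.70 with Cre, low in knockout replicate 1 alone.

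Retinoic acid genes had differences in both directions. Of 21 listed, 14 were tested, 9 with a higher and 5 with a lower mean, where 41.7% of all tested genes were higher and 58.3% lower, and the median was 0.07. Limma called 0 of the 14, with 5 at an unadjusted p under 0.05, where 11.7% of all genes were. Of these 5, 2 were higher and 3 lower, where 4.89% of all genes were higher and 6.78% lower at that level. The knockout arrays lay wholly above the controls for 2 of the 14 and wholly below for 4, where 16.7% and 27.5% of all genes did so. Aldh1a1, a retinaldehyde dehydrogenase that makes retinoic acid, read 7.76 and 7.003 in control cells, against 6.60 and 5.51 in knockout cells (-1.33, SE 0.45; limma, adjusted p = 0.385). Aldh1a3, an enzyme of the same step, went the other way, at 4.57 and 4.02 in Cre-negative cells and 6.18 and 5.04 in Cre-positive cells (1.32, SE 0.43; limma, adjusted p = 0.377). Without knockout replicate 1 the Aldh1a3 difference was 0.75, and without knockout replicate 2 that of Aldh1a1 was -0.78. Dhrs3, which returns retinaldehyde to retinol and so limits retinoic acid, read 7.90 and 7.98 without Cre and 8.93 and 8.88 with Cre. Its arrays were tight within each group, and its difference of 0.96 (SE 0.13) had an adjusted p of 0.161 by limma. The Cdx genes, which relay retinoic acid signals to central Hox genes in the embryo, were below the filter.

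Of 20 listed noncoding RNAs of the clusters 7 had a row of their own and 3 were tested, all microRNA genes. MicroRNAs of the Hox clusters repress Hox transcripts, and miR-196 is known to cleave Hoxb8 transcripts. Their mature sequences, from RefSeq in GRCm38.p6, are given 5′ to 3′ with the seed, bases 2 to 8, in capitals to show which families they form.
miR-196a-5p: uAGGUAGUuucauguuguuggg
miR-196b-5p: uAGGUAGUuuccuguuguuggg
miR-10a-5p: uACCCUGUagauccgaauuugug
miR-10b-5p: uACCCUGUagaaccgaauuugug

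The miR-196 members share 1 seed and the miR-10 members another. Counted from the 5′ end, miR-196b-5p differs from miR-196a-5p by A12C, and miR-10b-5p from miR-10a-5p by U12A. The array measures RNA of the gene, not the processed mature form. Mir196a-1, next to Hoxb9, read 3.07 and 2.79 in control cells, against 3.86 and 2.64 in knockout cells. Knockout replicate 1 was high, as it was for the Hoxc8 row, and the Mir196a-1 difference was 0.32 (SE 0.43). Its control mean of 2.93 was below the filter level, and it passed through its knockout mean of 3.25, which rested on that high array. Mir196a-2, next to Hoxc10, read 3.43 and 3.37 in Cre-negative cells and 3.22 and 3.13 in Cre-positive cells, apart by a small step of -0.23 (SE 0.14; limma, adjusted p = 0.573). Mir615, within the Hoxc5 gene, differed by 0.20 (SE 0.22). Mir615 had a mean above the olfactory level, but Mir196a-1, with a mean of 3.09, and Mir196a-2, with 3.29, did not. Hotair, a long RNA from between Hoxc11 and Hoxc12, Hoxaas3, Hoxd3os1 and Mir10b were below the filter. All 10 genes of a further list of homeobox genes other than Hox, among them Evx1 and Evx2, were below it as well.

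Other transcription factors of the embryonic sources of aortic smooth muscle were lower more often than not. Of 35 listed, 25 were tested, 6 with a higher and 19 with a lower mean, where 58.3% of all tested genes were lower, and the median was -0.43 beside -0.05 over all genes. Limma called 0 of the 25, with 7 at an unadjusted p under 0.05, all lower, where 6.78% of all genes were lower at that level. The knockout arrays lay wholly below the controls for 12 of the 25, where 27.5% of all genes did so, and wholly above for 0. Of these 12, Msx2 and Foxf1 had knockout means of 2.94 and 2.91, below the filter level of 3.02, and passed it through their controls. Dlx5 and Tfap2b, lower with overlap (-1.28 and -0.87), had knockout means of 2.81 and 2.67, also below that level. They passed it through control replicate 2 alone, at 5.16 and 4.51. The counts of lower genes and the median of -0.43 include genes that passed in this way. Of the 25, 14 had a mean above the olfactory level, and Msx2 at 3.35 did not. Below the filter, Wt1 lay wholly above the controls, at 3.25 and 3.22 with Cre against 2.78 and 2.66 without. Hand1, Tbx20 and Tcf15, also below the filter, lay wholly below. Twist1, a factor of cranial and arch mesenchyme, read 6.08 and 6.47 without Cre and 5.26 and 4.99 with Cre (-1.15, SE 0.20; limma, adjusted p = 0.213). Foxc1, needed for aortic arch formation, read 5.75 and 6.15 in control cells, against 5.11 and 4.88 in knockout cells (-0.95, SE 0.20; limma, adjusted p = 0.254). Msx2, a homeobox gene of neural crest derivatives, read 4.003 and 3.51 in Cre-negative cells and 3.16 and 2.73 in Cre-positive cells (-0.81, SE 0.25). For all 3 both knockout arrays lay below both controls, and the list was chosen with earlier results of these data known.

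**Figure D4:**
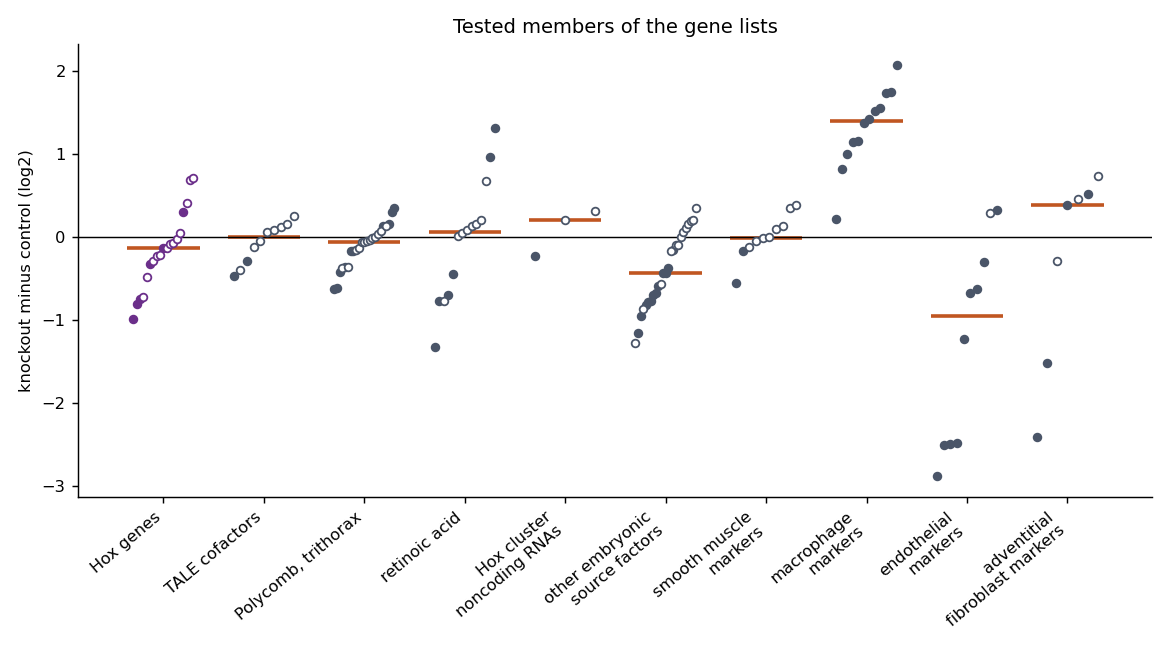
Knockout minus control difference in log2 units (vertical axis) of each tested member of the Hox family, of 5 lists around it and of 4 cell type marker lists. Points are genes sorted within each list, filled where the 2 groups did not overlap and open where they did, and orange bars are list medians, -0.13 for the Hox genes, 1.40 for macrophage markers and -0.95 for endothelial markers.

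Macrophage markers read higher and most tested endothelial markers lower in the knockouts, with 0 of either called by limma. All 12 macrophage markers had both knockout arrays above both controls, where 16.7% of all tested genes did, with a median difference of 1.40 and a mean level of 6.91 and 6.98 in the controls against 8.17 and 8.36 in the knockouts. Of 10 tested endothelial markers 8 were lower without overlap, where 27.5% of all tested genes were, with a median of -0.95 and a mean level over all 12 of 5.05 and 4.70 in the controls against 3.71 and 3.88 in the knockouts. The other tested endothelial markers went the other way, Kdr wholly above the controls (0.32) and Vwf higher with overlap (0.29). Of the 8, Esam and Tie1 had knockout means of 2.95 and 3.00, below the filter level of 3.02, and passed it through their controls. Cldn5 and Tek, also endothelial, were below the filter. Smooth muscle markers were split, 4 higher and 6 lower, around a median of -0.01. Of 7 tested adventitial fibroblast markers 4 were higher and 3 lower (median 0.38), and Pi16 and Clec3b were below the filter. Mesothelial markers had 2 of 5 tested, both lower, with Msln and Upk3b below the filter, Schwann cell markers 3 of 4 higher, and adipocyte markers 1 of 6 above the filter. In bulk RNA fewer cells of a type and less RNA per cell cannot be told apart, and the part of other cell types in the Hox differences was not tested.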

How the data were processed

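Total RNA of 4 cultures was amplified from 10 ng and hybridised to Mouse Gene ST 2.1 strips, per the labels' protocols. The deposited table holds log2 values for 41345 rows that the authors made with RMA (background correction, normalisation and summary per transcript cluster), per the submitters' processing notes. Their range, 1.17 to 12.39, gave the log base. The chip definition is not given in the sources used here, nor is the build, and row coordinates are therefore left out. Rows were named through the platform annotation: 23521 had 1 symbol, 1814 several and 16010 none listed. All 36 Hox rows matched RefSeq by NCBI gene number with 0 symbols changed, and 7 rows that join a Hox symbol to another gene were left out.

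For a gene with several rows the row with the highest mean was kept. Genes with a mean at or above 3.02, the median of all row means, entered a limma fit (version 3.58.1 under R 4.3.3, functions lmFit and eBayes) of knockout minus control with no covariate. A call needed an adjusted p under 0.05 after Benjamini-Hochberg adjustment over 12550 genes. Intervals are 95% intervals of that fit, and the fit was tested on simulated data. Arrays have no sequencing depth, so that precision depends on how many there are.

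The members, lists and tests were chosen with earlier results of these data known. Values in each array are given for every Hox gene above the filter, and for one below it if it varied by over 1 log2 unit. Of each list up to 3 tested members with the largest difference without overlap are named, and Mmp14 and Tagln as checks. Apoe, the third check, read 4.97 and 5.00 without Cre and 4.80 and 4.45 with Cre. Acta2, Des, Cnn1, Mylk, Smtn, Foxf1, Kdr, Vwf, Esam, Tie1, the below-filter genes, Hoxc13's steps and Ezh2 were named outside that rule. So were the genes among the other observations. Sequences come from RefSeq tables of GRCm38.p6. Plots were drawn with matplotlib 3.10.9.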

Additional observations from a re-analysis of the deposited data

How the results depend on the processing

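Of the 19 tested Hox genes 11 kept their direction in every one of up to 13 other settings that tested them, Hoxa2 to Hoxa6, Hoxb5 to Hoxb7, Hoxc9, Hoxc10 and Hoxd8, and the other 8 reversed only where an array was left out; 0 Hox genes and 0 genes in all were called by limma in any setting. The replicate block, the filters, the trend and robust fits and the array weights left each Hox difference unchanged. No direction could reverse under these settings. The title number as a replicate block called 0 genes. In this balanced layout it could not alter the counts of genes higher and lower or the median of -0.13. Its adjusted p by limma fell for some Hox genes, as from 0.542 to 0.297 for Hoxb5 and from 0.780 to 0.395 for Hoxb9. It rose for others, as from 0.477 to 0.545 for Hoxa3. The deviations of same-numbered arrays had an r of 0.0454 over all tested genes and 0.622 over the Hox genes. Whether equal numbers mark the pairs of mice is not stated in the labels. With no filter on dim genes 15 of 36 were higher and 4 of these without overlap. The share of all genes without overlap was not taken for this or the next setting. With the 75th percentile filter 5 Hox genes were left, 3 higher and 2 lower, with 2 lower and 0 higher without overlap and a median reversed to 0.044, and of the listed genes 1 TALE, 4 Polycomb or trithorax, 4 retinoic acid and 1 embryonic source factor were higher, fewer genes being tested. At the 99th percentile of olfactory rows 5 Hox genes remained above, and the share of all genes was not taken there.

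With single arrays left out, a group of 1 array being assumed to vary like the other, the Hox median ran from -0.40 to 0.019. The number higher ran from 3 to 10 and the number lower from 9 to 16. Those without overlap and lower ran from 5 to 13, and those without overlap and higher from 1 to 6. Leaving out an array can only add genes without overlap, and the share of all genes was not taken there. Members higher ran from 3 to 6 for TALE genes, 7 to 12 for Polycomb and trithorax genes, 6 to 9 for retinoic acid genes, 1 to 2 for noncoding RNAs and 4 to 8 for embryonic source factors. The 8 Hox genes that reversed, and Tagln, ran over these refits from -0.54 to 0.078 (Hoxa7), -0.67 to 0.54 (Hoxa9), -0.28 to 0.019 (Hoxb3), -0.11 to 0.066 (Hoxb4), -1.12 to 0.16 (Hoxb9), -0.27 to 0.099 (Hoxc4), -0.49 to 0.58 (Hoxc6), -0.21 to 1.57 (Hoxc8) and -0.36 to 0.34 (Tagln). The cause was not tested.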

Other observations

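Several genes of neural crest derivatives, and markers of some other cell types, varied between arrays of the same genotype in another order than the Hox genes did. Sox10, a neural crest and Schwann cell factor, read 4.43 and 3.24 in control cells, against 3.80 and 4.57 in knockout cells, high in control replicate 1 and knockout replicate 2. Cdh19, a cadherin of Schwann cell precursors, read 5.56 and 4.12 in Cre-negative cells and 4.99 and 6.24 in Cre-positive cells, and Foxd3, a neural crest factor, 4.74 and 3.84 against 4.47 and 5.74. Tfap2a, another neural crest factor, read 6.17 and 4.45 without Cre and 5.15 and 5.89 with Cre. The 2 groups overlapped for all 4. Other Schwann cell markers did not show that order: S100b read 4.55 and 5.08 in control cells, against 4.37 and 4.80 in knockout cells, and Mbp 3.05 and 2.98 against 3.23 and 3.16. Msx2 and Tfap2b, listed with Sox10, did not show it either. Upk1b, a mesothelial marker, did, at 9.24 and 5.78 in control cells, against 4.34 and 5.91 in knockout cells. So did Cdh5 and Emcn, endothelial markers, and Cd34 and Dpt, adventitial fibroblast markers.

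Dlx5, a homeobox gene of the pharyngeal arches, read 5.16 in control replicate 2 and between 2.59 and 3.02 in the other arrays, and Tfap2b read 4.51 in control replicate 2 and between 2.56 and 2.72 elsewhere. Prrx2, a mesenchymal homeobox gene, read 5.63 in control replicate 2 and 4.14 to 4.69 elsewhere. Of the tested Hox genes, Hoxa2, Hoxa4 and Hoxc4 were also highest in control replicate 2, at 4.56, 4.61 and 3.65, but by smaller steps. The next highest array read 4.32 for Hoxa2 and 4.59 for Hoxa4 (control replicate 1), and 3.55 for Hoxc4 (knockout replicate 1). These genes were singled out after their values were seen.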
